A study of Mus musculus with 16 samples.

Results

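Lysophosphatidylcholine (LPC) and its vehicle were compared in imiquimod-treated ear skin at day 4, using every library that the sample titles give to these groups. These are 8 of the 16 libraries of the series, each from a separate BALB/c mouse aged 8 weeks: 4 mice with imiquimod and LPC and 4 with imiquimod and vehicle. LPC mice had 10 µl of a 10 mM solution injected into the dermis of the ear, and vehicle mice 10 µl of normal saline. One injection per day was planned over 6 days, and the sources used here do not state how many of them the day 4 mice had received. The titles and treatment labels call the vehicle mice by imiquimod alone, and the saline comes from the design text. The other 8 libraries are LPC and vehicle mice killed at day 7, 4 of each. All mice received imiquimod and an injection, so neither group is untreated skin.

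Imiquimod activates the innate receptor TLR7, and on mouse skin it gives a thickened, scaly inflammation that depends on the IL-23 and IL-17 cytokines and is used as a model of psoriasis. LPC is the lipid left when a phospholipase removes a fatty acid from phosphatidylcholine. The secreted enzyme autotaxin (gene Enpp2) turns it into lysophosphatidic acid, and acyltransferases return it to phosphatidylcholine. The ear is a thin organ with epidermis and dermis on both faces of a cartilage plate, with fat, nerves and strips of striated auricular muscle between them.

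Expected counts, the estimated read counts per gene given by the program RSEM, summed to between 18704197 and 20058172 per day 4 library, and 17563 to 17699 genes were listed in each. For a gene without counts the limit of detection was 3 counts, which is 0.150 to 0.160 CPM (counts scaled to a common library size) and allows for counting error only. Keratinocyte transcripts were abundant in all 8 libraries: Krt14, the keratin of the basal epidermis, was at 6322, 9432, 5554 and 6853 CPM in vehicle mice 1 to 4 and 9916, 8826, 9422 and 8359 CPM in LPC mice 1 to 4. Skeletal muscle transcripts divided the groups. The 30 genes of a muscle list (sarcomere and muscle metabolism genes) took 5.28%, 3.90%, 0.613% and 4.62% of all counts in vehicle mice 1 to 4 and 0.509%, 0.0781%, 0.0968% and 0.216% in LPC mice 1 to 4. Vehicle mouse 3 stood apart from its group and next to LPC mouse 1, and every muscle gene had counts in all 8 libraries. The 20 adipocyte genes took 0.405%, 0.353%, 0.172% and 0.329% with vehicle and 0.155%, 0.122%, 0.127% and 0.0801% with LPC. In whole tissue, fewer cells of a type and less RNA per cell cannot be told apart.

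Transcripts higher with LPC than with vehicle included those of the matrix protease gene Mmp10, of the stress-induced genes Gdf15, Atf3 and Hmox1, of the vessel-dilating hormone gene Adm and of the signalling regulator gene Rgs1. Lower ones included those of the potassium channel genes Kcnc4 and Kcnj2, of the phospholipase gene Liph and of the transcription factor gene Tbx3. The edgeR quasi-likelihood test over all 16 libraries, with Benjamini-Hochberg adjustment over 15782 genes, called 22 genes at an adjusted p under 0.05, which is 0.139% of the genes tested. Among them 15 were higher with LPC (0.095%) and 7 lower (0.0444%). A fold change over 2, the size the labels' protocols ask for, was seen in 18 (0.114%). In all 22 the 4 LPC mice lay on one side of the 4 vehicle mice, as they did in 2540 genes overall (16.1%), 1171 of them higher (7.42%) and 1369 lower (8.67%). At an adjusted p under 0.10 the count was 835 (5.29%), and of the 813 genes between these thresholds 274 were higher and 539 lower with LPC. At an unadjusted p under 0.05 it was 3025 (19.2%), and DESeq2 called 1104 of the 15782 genes at an adjusted p under 0.05. Counts of list members by these 2 rules, given below, are to be read against these numbers.

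Fitting the 8 day 4 libraries alone gave a smaller spread between mice, a coefficient of biological variation of 29.8% against 35%, and called 1333 of 15382 genes (8.67%), 400 of them higher (2.6%) and 933 lower (6.07%). All 22 genes were among them, with edgeR adjusted p from 0.0073 to 0.021. With a replicate block, which pairs the mice that carry the same number, the 16-library fit called 1 gene (0.00634%), Rgs1 at an edgeR adjusted p of 0.0091, left the other 21 at up to 0.14, and the day 4 libraries alone called 1165 (7.57%). By edgeR the 16-library count was 0 without vehicle mouse 1, 2 or 4 or LPC mouse 1, 3 or 4 (2277 to 2590 genes at an unadjusted p under 0.05, against 3025 with all mice), 35 without LPC mouse 2 (with 18 of the 22 among them) and 683 without vehicle mouse 3 (with all 22). It was also 0 with the muscle score of each library as a covariate (1234 genes at an unadjusted p under 0.05), where the 22 genes had edgeR adjusted p from 0.17 to 0.58 and each kept its direction. The muscle score did not overlap between the groups (6.29 to 9.94 with vehicle and 3.23 to 6.13 with LPC). That fit can therefore hardly separate LPC from muscle share, and no conclusion is drawn from it. Below, "rose" and "fell" without further words refer to the 16-library fit, and calls of the day 4 libraries alone are named as such. Log2 fold changes and their SE come from the 16-library fit, also beside calls of the day 4 libraries alone, unless another setting is named. An estimate close to its SE, such as that of Rgs5, can thus stand beside such a call. The bar plot of calls shows these counts by setting.

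**Figure D1:**
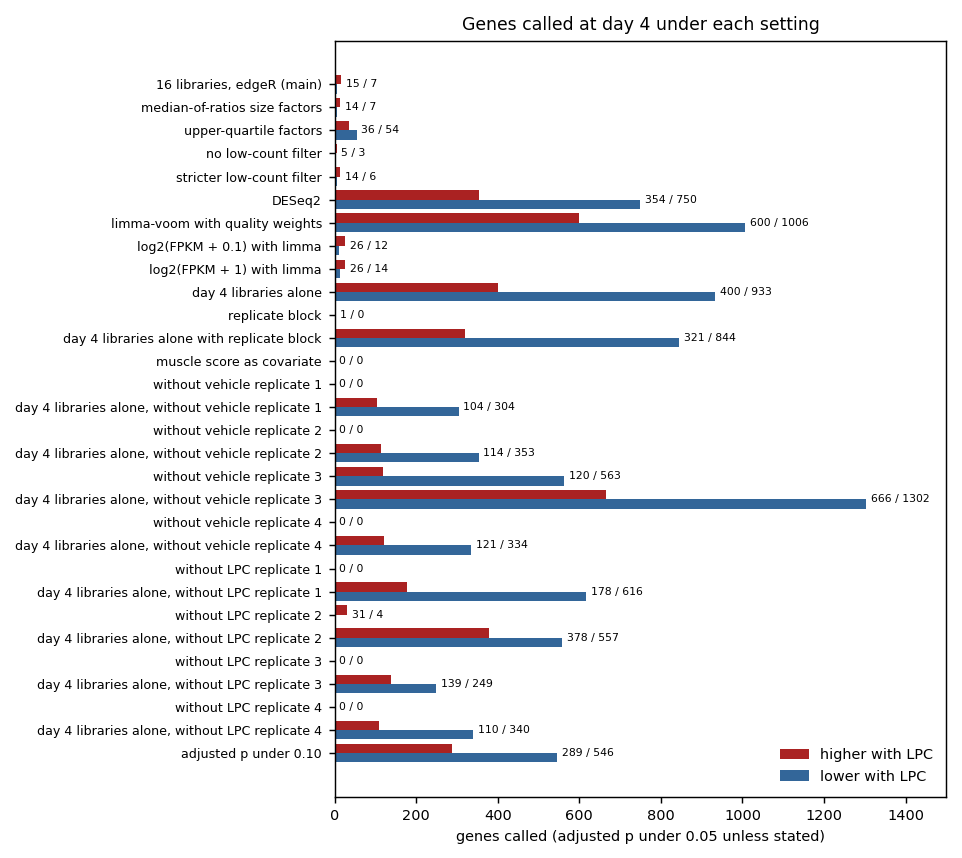
Number of genes called at day 4 (x axis) under each setting (y axis), as red bars for genes higher with LPC and blue bars for genes lower; the 2 numbers beside each pair are these counts. The 16-library fit calls 15 and 7, the day 4 libraries alone 400 and 933, and 6 of the 8 fits of the 16 libraries that leave out a mouse call none.

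Among the risen genes were those for the secreted proteins Mmp10, Gdf15 and Adm and for the signalling regulator Rgs1. Mmp10 (Entrez 17384, chromosome 9, 7502342 to 7510242) encodes stromelysin-2, a matrix metalloproteinase that migrating keratinocytes make at wound edges. It was at 1.16, 2.07, 0.580 and 1.13 CPM in vehicle mice 1 to 4 and 100.2, 16.4, 37.1 and 55.8 CPM in LPC mice 1 to 4, a log2 fold change of 5.40 ± 0.97 (SE, edgeR adjusted p = 0.046). LPC mouse 1 was the highest and LPC mouse 2 the lowest of the LPC group, yet mouse 2 was well above every vehicle mouse. Gdf15 (Entrez 23886, chromosome 8, 70629393 to 70632470), a stress-induced hormone of the TGF-beta family, was at 0.265, 0.593, 0.532 and 0.639 CPM with vehicle and 5.39, 4.79, 3.58 and 4.02 CPM with LPC (3.11 ± 0.48, edgeR adjusted p = 0.025). The LPC mice agreed closely for this gene. Adm (Entrez 11535, chromosome 7, 110627657 to 110629820) encodes adrenomedullin, a peptide that widens vessels and is induced by low oxygen. Its levels were 8.89, 8.74, 8.70 and 15.8 CPM with vehicle and 48.4, 30.4, 112 and 46.2 CPM with LPC (2.49 ± 0.45, edgeR adjusted p = 0.046), with LPC mouse 3 far above the other LPC mice. Rgs1 (Entrez 50778, chromosome 1, 144244669 to 144249104), which shortens signalling by G protein-coupled receptors and is found mostly in leukocytes, had 3.07, 1.33, 1.06 and 2.80 CPM with vehicle and 20.2, 9.77, 12.7 and 23.9 CPM with LPC (3.01 ± 0.46, edgeR adjusted p = 0.025). Of 14 genes of the RGS family, Rgs1 alone rose; in the day 4 libraries alone Rgs3 (log2 fold change -0.67 ± 0.22) and the pericyte gene Rgs5 (-0.61 ± 0.55) fell. No fall in this family was called there without vehicle mouse 1, 2 or 4 or LPC mouse 1, 3 or 4.

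Of the genes that act in the nucleus, Atf3 changed the most apart from H1f4. Atf3 (Entrez 11910, chromosome 1, 191170296 to 191183333), a stress-responsive transcription factor, was at 24.4, 19.2, 26.6 and 22.3 CPM with vehicle and 161, 58.9, 141 and 148 CPM with LPC (2.46 ± 0.44, edgeR adjusted p = 0.046). LPC mouse 2 was the lowest of its group here too, as it was for Mmp10, Emp1 and Hmox1. Elf1 (Entrez 13709, chromosome 14, 79481174 to 79582491), an ETS-family transcription factor, and Wwtr1 (Entrez 97064, chromosome 3, 57455644 to 57575910), which encodes the Hippo pathway coactivator TAZ, rose by less than 2-fold, from 40.8, 40.8, 47.2 and 41.7 to 73.4, 73.6, 81.7 and 78.0 CPM and from 65.0, 63.3, 56.5 and 59.2 to 105, 75.6, 94.3 and 103 CPM. Their log2 fold changes were 0.85 ± 0.13 and 0.63 ± 0.11 (edgeR adjusted p = 0.025 and 0.043). Scaf8 (Entrez 106583, chromosome 17, 3114972 to 3198859), which binds RNA polymerase II, and Rbm7 (Entrez 67010, chromosome 9, 48488697 to 48495330), part of a complex that directs RNA to the nuclear exosome, rose by 0.65 ± 0.11 and 0.63 ± 0.11 on the log2 scale (edgeR adjusted p = 0.043 and 0.046). These shifts were small and even, and the mice of each group lay close together: Rbm7 was at 32.9, 28.0, 33.8 and 34.8 CPM with vehicle and 50.7, 46.4, 48.5 and 54.9 CPM with LPC. H1f4 (Entrez 50709, chromosome 13, 23621777 to 23622558), a linker histone, went from 0.317, 0.395, 0.193 and 0.197 CPM to 6.30, 1.37, 3.69 and 4.38 CPM (3.81 ± 0.56, edgeR adjusted p = 0.025). Its vehicle levels were near the limit of detection, and histone H1 genes resemble one another, so the reads assigned to it are uncertain. The Elf1 gene model overlaps that of Wbp4, and reads in the shared stretch cannot be assigned with certainty.

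Among enzymes, Hmox1 (Entrez 15368, chromosome 8, 75093618 to 75100593), which breaks down heme and is a target of the oxidative stress factor NRF2, was at 69.1, 50.5, 58.5 and 48.9 CPM with vehicle and 212, 111, 273 and 186 CPM with LPC (1.78 ± 0.32, edgeR adjusted p = 0.046). Ugdh (Entrez 22235, chromosome 5, 65413207 to 65435842), which makes the UDP-glucuronate used for hyaluronan and for conjugating drugs, was at 50.7, 51.4, 54.3 and 56.6 CPM with vehicle and 208, 98.3, 94.9 and 131 CPM with LPC (1.32 ± 0.24, edgeR adjusted p = 0.049). No mouse crossed between the groups for either gene. Emp1 (Entrez 13730, chromosome 6, 135362550 to 135383173), which encodes an epithelial membrane protein, was at 252, 265, 318 and 254 CPM with vehicle and 990.1, 479, 692 and 708 CPM with LPC (1.40 ± 0.21, edgeR adjusted p = 0.025). The remaining risen genes were at low levels. Mgarp (Entrez 67749, chromosome 3, 51388412 to 51396547), a mitochondrial protein induced by low oxygen, went from 0.635, 0.346, 0.870 and 0.885 CPM to 3.74, 2.74, 3.43 and 4.83 CPM (2.42 ± 0.44, edgeR adjusted p = 0.046). Unc13a (Entrez 382018, chromosome 8, 71624125 to 71671774), a factor of synaptic vesicle release, went from 1.11, 1.04, 1.01 and 0.786 CPM to 3.10, 1.66, 3.17 and 4.43 CPM (1.64 ± 0.30, edgeR adjusted p = 0.046). Its gene model overlaps that of Colgalt1, an enzyme that glycosylates collagen, so its reads are uncertain as well. The dot plot of the called genes shows the 8 mice for each.

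**Figure D2:**
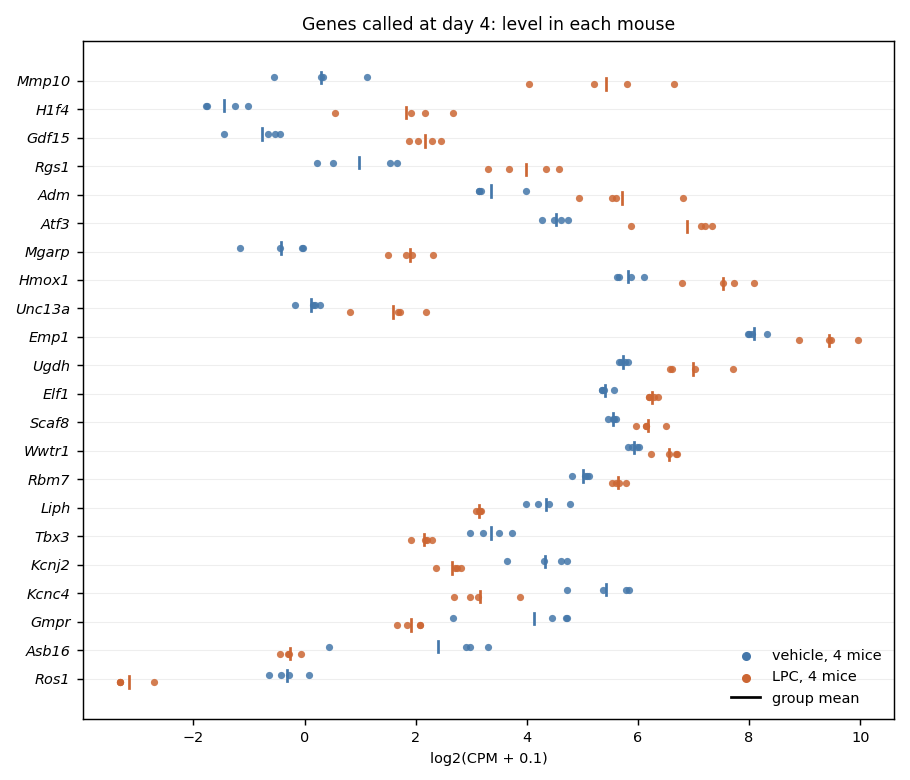
Level of each of the 22 called genes (y axis) in each mouse as log2(CPM + 0.1) (x axis), blue for the 4 vehicle mice and orange for the 4 LPC mice, with a vertical bar at each group's mean. The groups do not overlap for any of these genes; Mmp10 runs from 0.580 to 2.07 CPM with vehicle and from 16.4 to 100.2 CPM with LPC.

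The promoters of the risen genes were searched for letters that stress-responsive factors bind, because Atf3 and its partners of the Fos and Jun families were higher with LPC. In the 250 bases before each start in the RefSeq table of build GRCm38.p6, both strands were searched for the AP-1 site TGANTCA, bound by Fos and Jun dimers, the CRE site TGACGTC, and the CARE letters TGATGNAA, bound by ATF4 and CHOP dimers of the integrated stress response. AP-1 letters stood in 3 of the 13 risen genes with a promoter in the table (Elf1, Emp1 and Mmp10). They stood in 6.75% of all 32851 promoters and in 6.46% of the 12411 tested genes with a promoter. CARE letters stood in Atf3 and Mmp10 (3.45% of all promoters and 2.65% of these tested genes) and the CRE in Rbm7 (2.78% and 4.71%). None stood in the 6 fallen genes with a promoter. The promoters of Mmp10, Atf3, Emp1 and Rbm7 are shown as examples (that of Elf1 is not shown), from 5′ to 3′ on the gene's strand, ending at the base before the start, with the matches in capitals:
Mmp10 (chr9:7502192-7502341, plus strand): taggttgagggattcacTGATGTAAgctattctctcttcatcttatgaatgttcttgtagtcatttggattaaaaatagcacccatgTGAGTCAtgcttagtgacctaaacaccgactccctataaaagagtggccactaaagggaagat
Atf3 (chr1:191183334-191183483, minus strand): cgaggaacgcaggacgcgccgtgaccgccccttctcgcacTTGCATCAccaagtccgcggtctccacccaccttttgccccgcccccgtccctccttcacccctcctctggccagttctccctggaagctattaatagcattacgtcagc
Emp1 (chr6:135362776-135362930, plus strand): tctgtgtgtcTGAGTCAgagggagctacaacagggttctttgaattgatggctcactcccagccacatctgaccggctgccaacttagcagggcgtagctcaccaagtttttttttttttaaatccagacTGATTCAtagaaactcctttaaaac
Rbm7 (chr9:48495331-48495480, minus strand): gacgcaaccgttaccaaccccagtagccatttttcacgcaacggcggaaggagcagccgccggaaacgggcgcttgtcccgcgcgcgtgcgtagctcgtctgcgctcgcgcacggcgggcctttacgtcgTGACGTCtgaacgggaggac
In Mmp10 the CARE letters lie at -133 to -126 and the AP-1 site at -63 to -57. Emp1 holds an AP-1 site at -145 to -139 and another at -25 to -19 in one of its 2 listed promoters, Atf3 the CARE letters on the other strand at -110 to -103, and Rbm7 the CRE at -20 to -14. A match says which letters are there, not whether a factor binds.

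Of the 7 fallen genes, 4 belong to a list of muscle excitability, ankyrin repeat SOCS box and nucleotide enzyme genes, and their values are given beside the muscle share. Kcnc4 (Entrez 99738, chromosome 3, 107438298 to 107460287), a voltage-gated potassium channel, was at 41.5, 55.1, 26.3 and 57.3 CPM with vehicle and 14.6, 6.35, 7.74 and 8.55 CPM with LPC (-2.27 ± 0.35, edgeR adjusted p = 0.025). Kcnj2 (Entrez 16518, chromosome 11, 111066164 to 111076825), an inward rectifier potassium channel that sets the resting potential of muscle, was at 24.4, 19.7, 12.4 and 26.4 CPM with vehicle and 6.40, 5.03, 6.91 and 6.61 CPM with LPC (-1.73 ± 0.27, edgeR adjusted p = 0.025). In both, vehicle mouse 3, the vehicle mouse with the lowest muscle share, was the lowest of its group. Asb16 (Entrez 217217, chromosome 11, 102268751 to 102279454), an ankyrin repeat and SOCS box protein, was at 9.79, 7.80, 1.26 and 7.42 CPM with vehicle and 0.854, 0.635, 0.727 and 0.712 CPM with LPC (-3.15 ± 0.55, edgeR adjusted p = 0.046). Gmpr (Entrez 66355, chromosome 13, 45507428 to 45546386), which converts GMP to IMP, was at 25.8, 26.2, 6.23 and 21.8 CPM with vehicle and 4.11, 3.47, 3.06 and 4.12 CPM with LPC (-2.44 ± 0.44, edgeR adjusted p = 0.048). Vehicle mouse 3 stood between the groups for these genes too, much nearer the LPC mice. Of the 25 genes of that list tested, 4 fell and 23 fell in the day 4 libraries alone, with a median log2 fold change of -3.01 against 0.0028 over all genes. With a mouse left out in turn, that 23 became 7 to 25: 8, 9 and 10 without vehicle mouse 1, 2 or 4, and 15, 7 and 10 without LPC mouse 2, 3 or 4.

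The 3 other fallen genes are in no muscle list. Liph (Entrez 239759, chromosome 16, 21953817 to 21995658) encodes a phospholipase that makes lysophosphatidic acid from phosphatidic acid and is required for hair growth. It was at 15.8, 20.9, 27.2 and 18.3 CPM with vehicle, where mouse 3 was the highest, and at a narrow 8.97, 8.84, 8.67 and 8.34 CPM with LPC (-1.24 ± 0.19, edgeR adjusted p = 0.025). Tbx3 (Entrez 21386, chromosome 5, 119670534 to 119684724), a T-box transcription factor, was at 13.2, 9.19, 7.78 and 11.3 CPM with vehicle and 4.38, 3.66, 4.83 and 4.48 CPM with LPC (-1.25 ± 0.23, edgeR adjusted p = 0.046), with mouse 3 the lowest of the vehicle group. Ros1 (Entrez 19886, chromosome 10, 52044863 to 52195398), a receptor tyrosine kinase, had 57 counts in the 4 vehicle libraries and 1 in the 4 LPC libraries, which makes it 56.6 times as high with vehicle (9.75 to 2.27e+03 by the Clopper-Pearson method at 95%, counting error alone; edgeR adjusted p = 0.046). Its vehicle levels were 0.952, 0.642, 0.725 and 0.541 CPM, and its single LPC count was in mouse 1. Of 9 T-box and limb patterning genes tested, Tbx3 alone fell, and in the day 4 libraries alone Tbx4 (log2 fold change -2.0 ± 0.48) and Tbx15 (-2.01 ± 0.51) fell with it. Tbx15 was at 123, 61.9, 43.9 and 81.9 CPM with vehicle and 21.5, 14.4, 18.5 and 22.5 CPM with LPC, with vehicle mouse 3 lowest of its group. With a mouse left out in turn, 2 or 3 of these genes fell in the day 4 libraries alone.

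Muscle and fat genes were lower with LPC, with vehicle mouse 3 near the LPC group. None of 30 skeletal muscle genes was called in the 16-library fit (all 30 at an unadjusted p under 0.05, and 29 by DESeq2), while 26 fell in the day 4 libraries alone, with a median log2 fold change of -4.08. Myoglobin (Mb) was at 2041, 1102, 396 and 1242 CPM with vehicle and 116, 26.3, 51.2 and 96.3 CPM with LPC (-4.04 ± 0.89, edgeR adjusted p = 0.058). The thick filament gene Myh7 of slow muscle was at 149.5, 87.4, 2.17 and 136 CPM with vehicle and 0.320, 1.22, 1.19 and 2.54 CPM with LPC (-6.14 ± 1.57, edgeR adjusted p = 0.067), with vehicle mouse 3 inside the LPC range. The muscle count was 29 without vehicle mouse 3 and 5 to 12 without vehicle mouse 1, 2 or 4 or LPC mouse 2, 3 or 4. Of 20 adipocyte genes none was called in the 16-library fit (6 at an unadjusted p under 0.05, all lower, and Lpl, Slc2a4 and Car3 by DESeq2), and 9 fell in the day 4 libraries alone (15 without vehicle mouse 3, 4 or 5 without vehicle mouse 1, 2 or 4 or LPC mouse 2, 3 or 4). Their median log2 fold change was -1.94. Adipoq, the adipocyte hormone adiponectin, was at 53.3, 61.1, 9.81 and 48.9 CPM with vehicle and 8.06, 2.15, 9.14 and 2.14 CPM with LPC, and lipoprotein lipase (Lpl) at 387, 238, 157 and 294 CPM and 75.7, 57.5, 85.9 and 52.6 CPM (-1.99 ± 0.59, edgeR adjusted p = 0.088). With the muscle score as a covariate, Adipoq was at 2.25 and Myh7 at 0.69, and neither was called (edgeR adjusted p = 0.73 and 0.94). Myh7 is itself part of the muscle score, so its value in that fit follows from the covariate.

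Genes of mitochondrial fuel use were lower as well. Of 22 fatty acid oxidation genes, 7 fell in the day 4 libraries alone and the median log2 fold change was -0.63; of 24 nuclear-encoded oxidative phosphorylation genes, 6 fell there and the median was -0.62. No gene of either list was called in the 16-library fit (19 and 20 were lower at an unadjusted p under 0.05, and 11 and 14 by DESeq2). Cpt1b, the muscle form of the enzyme that admits fatty acids to mitochondria, was at 139.7, 111, 25.1 and 95.9 CPM with vehicle and 16, 9.19, 6.85 and 12.6 CPM with LPC (-3.06 ± 0.69, edgeR adjusted p = 0.058). Sdha, a succinate dehydrogenase subunit that all tissues use, was at 276, 260.4, 142 and 277 CPM with vehicle and 124, 117, 125 and 119 CPM with LPC (-0.98 ± 0.22, edgeR adjusted p = 0.058). For Sdha, vehicle mouse 3 again lay next to the LPC mice. Without vehicle mouse 3 the counts were 14 and 21, and without any other single mouse 3 to 5 and 1 to 3.

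**Figure D3:**
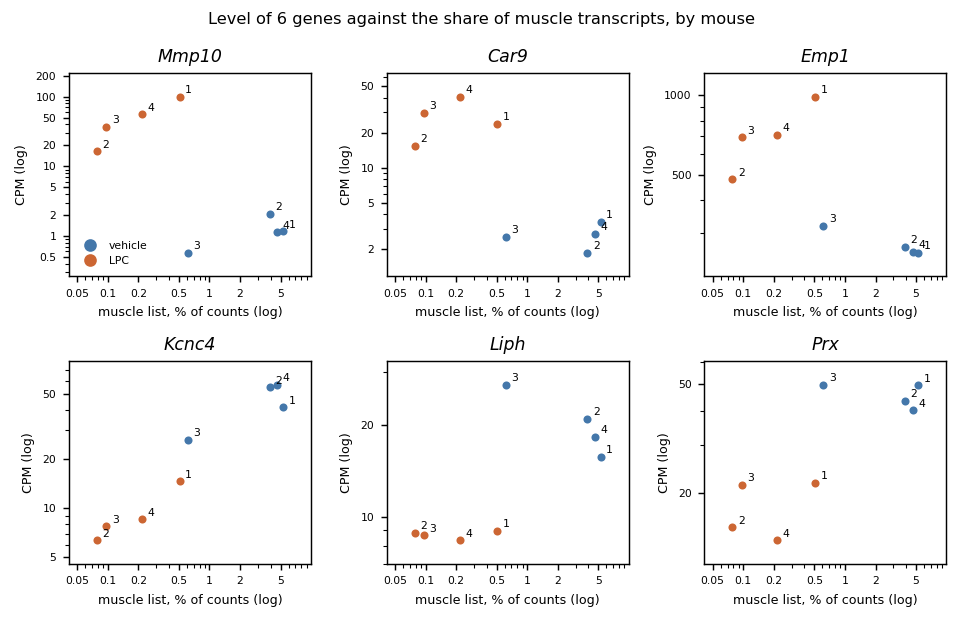
CPM of 6 genes (y axes, log scale) against the percent of counts from the 30 skeletal muscle genes (x axes, log scale) in each day 4 mouse, blue for vehicle and orange for LPC, with the mouse number beside each point. Vehicle mouse 3 (0.613%) and LPC mouse 1 (0.509%) lie side by side on the x axis. The gaps between these mice in the 6 genes rest on 1 mouse per group and were not tested.

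Because vehicle mouse 3 and LPC mouse 1 had nearly equal muscle shares, their values are given side by side. With 1 mouse each this comparison has no test, and not every called gene is listed. These mice differed in other lists, with a neutrophil mean log2 CPM of 1.13 in vehicle mouse 3 and 4.27 in LPC mouse 1. LPC mouse 1 was also the highest LPC mouse for Mmp10, Atf3 and Wwtr1. Mmp10 was at 0.580 and 100.2 CPM, Atf3 at 26.6 and 161 CPM, Hmox1 at 58.5 and 212 CPM, Elf1 at 47.2 and 73.4 CPM, Wwtr1 at 56.5 and 104.7 CPM, Rbm7 at 33.8 and 50.7 CPM, and Car9, described below, at 2.56 and 23.8 CPM. Among the fallen genes, Liph was at 27.2 and 8.97 CPM, Tbx3 at 7.78 and 4.38 CPM, Kcnc4 was at 26.3 and 14.6 CPM, Asb16 at 1.26 and 0.854 CPM and Gmpr at 6.23 and 4.11 CPM.

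Hypoxia-induced and glycolytic genes were the list with the highest median. Of its 26 genes, Adm and Mgarp rose, and 13 rose in the day 4 libraries alone, against 2.6% of all genes tested; the median log2 fold change was 0.93. In the day 4 libraries alone, leaving out each mouse in turn gave 9 to 14 risen genes, and the replicate block 11. Car9, the carbonic anhydrase that marks oxygen-poor tissue, was at 3.44, 1.88, 2.56 and 2.70 CPM with vehicle and 23.8, 15.4, 29.6 and 40.8 CPM with LPC (3.37 ± 0.68, edgeR adjusted p = 0.056, and 0.0066 in the day 4 libraries alone). Slc2a1, the glucose transporter GLUT1, was at 175, 175, 94.4 and 169 CPM with vehicle and 662, 460.4, 889 and 725 CPM with LPC (2.16 ± 0.47). Both genes were higher in each LPC mouse than in any vehicle mouse. The other 9 that rose in the day 4 libraries alone were the vessel growth factor gene Vegfa (1.36 ± 0.38), Ndrg1 (2.04 ± 0.46), Ankrd37 (1.92 ± 0.48), the mitochondrial gene Higd1a (1.00 ± 0.25), the collagen-modifying enzyme gene P4ha1 (0.98 ± 0.20) and the glycolytic enzyme genes Pfkp (1.07 ± 0.23), Hk1 (0.96 ± 0.20), Eno1 (0.93 ± 0.30) and Pgam1 (0.74 ± 0.29), with the log2 fold change of each in parentheses. The list did not move as a block. Pdk1 (-0.23 ± 0.16) and Bnip3 (-0.23 ± 0.35), both hypoxia-induced, and the glycolytic genes Ldha (0.30 ± 0.30), Gapdh (-0.16 ± 0.31) and Aldoa (-1.23 ± 0.37) were not called by edgeR in either fit. At an unadjusted p under 0.05 in the 16-library fit, 16 genes of the list were higher and 1 lower, and DESeq2 called 13 higher and 1 lower. Aldoa, the aldolase that muscle also uses, was at 3713, 3332, 808 and 2742 CPM with vehicle and 1256, 932, 1124 and 1205 CPM with LPC, low in vehicle mouse 3 as the muscle genes were.

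**Figure D4:**
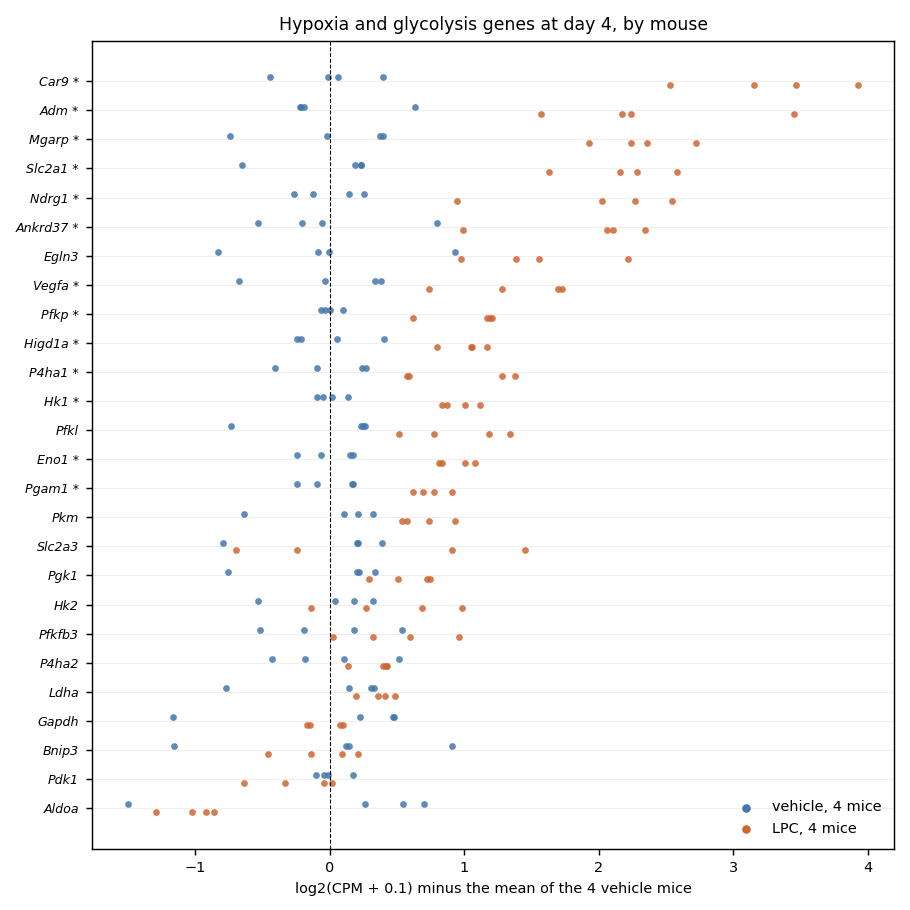
Level of 26 hypoxia and glycolysis genes (y axis) in each day 4 mouse as log2(CPM + 0.1) minus the mean of the 4 vehicle mice (x axis), blue for vehicle and orange for LPC; an asterisk marks the 13 genes called in the day 4 libraries alone. The LPC mice of these 13 genes lie to the right of all vehicle mice; for Aldoa, at the bottom, the LPC mice and vehicle mouse 3 lie to the left of the other vehicle mice.

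The core letters of the hypoxia response element, ACGTG on either strand (letters that the E-box CACGTG also holds), stood in the promoter windows of 16 of the 24 list genes with a promoter in the table and in 7 of 12 of those called in the day 4 libraries alone. They stood in 16.6% of all promoters and in 23.5% of the 12411 tested genes with a promoter. Genes of the list were picked as known targets of hypoxia factors, so this share is a property of the list. The Car9 promoter is shown as the example, with the core in capitals on the other strand at -18 to -14:
Car9 (chr4:43506876-43507025, plus strand): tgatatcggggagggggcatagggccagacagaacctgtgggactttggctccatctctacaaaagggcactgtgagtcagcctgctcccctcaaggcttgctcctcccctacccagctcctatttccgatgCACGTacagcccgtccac

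Proteases of the extracellular matrix rose alongside Mmp10 in the day 4 libraries alone. Of 19 metalloproteinase and inhibitor genes tested, Mmp10 rose, and 4 rose and 1, the inhibitor gene Timp4 (-1.38 ± 0.84), fell in the day 4 libraries alone. The 4 became 2 without vehicle mouse 1 and 3 without vehicle mouse 2, and Timp4 was not called without any mouse other than vehicle mouse 3. Mmp3, stromelysin-1, was at 44.5, 53.4, 37.3 and 76.5 CPM with vehicle and 1043, 489, 619 and 752 CPM with LPC (3.78 ± 0.87, edgeR adjusted p = 0.059, and 0.0034 in the day 4 libraries alone). Mmp13, a collagenase, was at 4.50, 7.80, 0.628 and 11.8 CPM with vehicle and 173, 56.7, 106 and 194 CPM with LPC (4.42 ± 0.88, edgeR adjusted p = 0.056). Mmp12, the elastase of macrophages, was at 0.212, 0.198, 0.0966 and 1.47 CPM with vehicle, below the limit of detection in mouse 3, and 13.9, 4.50, 7.53 and 13.9 CPM with LPC (4.31 ± 0.94, edgeR adjusted p = 0.058). Every LPC mouse was several times above the highest vehicle mouse for Mmp3 and Mmp13. Vehicle mouse 3 was the lowest vehicle mouse for all 4 proteases. Mmp1b (3.77 ± 0.89), a collagenase-like gene outside the list with close relatives, rose in the day 4 libraries alone as well. The inhibitor gene Timp1 had 1.43 ± 0.57, with 15.1, 40.1, 10.2 and 56.4 CPM with vehicle and 92.8, 39.3, 42.0 and 155 CPM with LPC, and was not called, and neither were the widely expressed Mmp2 (0.20 ± 0.22) and Timp2 (-0.18 ± 0.28).

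None of 26 wound edge and repair genes was called in the 16-library fit (18 were higher and 1 lower at an unadjusted p under 0.05, and DESeq2 called 6), and 9 rose in the day 4 libraries alone, with a median log2 fold change of 0.81. That count was 2 without vehicle mouse 1 or 2 or LPC mouse 4, 4 without vehicle mouse 4 or LPC mouse 1, and 5 without LPC mouse 3. Ptgs2, the inducible cyclooxygenase that makes prostaglandins, was at 18.5, 27.0, 4.78 and 52.5 CPM with vehicle and 500.2, 113, 161 and 389.7 CPM with LPC (3.50 ± 1.05, edgeR adjusted p = 0.092). It was the only gene of 20 in the eicosanoid list to rise in the day 4 libraries alone, and it did not without vehicle mouse 1 or 2 or LPC mouse 1 or 4. Of 14 basal keratinocyte genes 6 rose in the day 4 libraries alone, among them the laminin chain genes Lama3 and Lamb3 and the integrin genes Itga3, Itga6 and Itgb4, which anchor the epidermis to its basement membrane. Some of the 6, such as Lamb3, are among the 9 wound genes too. Lamb3 was at 176, 132, 128 and 101 CPM with vehicle and 312, 189.7, 211 and 226 CPM with LPC (0.81 ± 0.30, edgeR adjusted p = 0.16, and 0.049 in the day 4 libraries alone, where it was not called without any mouse other than vehicle mouse 1). The keratins of the same cells were not called: Krt5 had a log2 fold change of 0.28 ± 0.34, Krt14 0.38 ± 0.33 and Krt15 -0.48 ± 0.68. The count of 6 was 2 with the replicate block and 0 to 2 without vehicle mouse 1, 2 or 4 or LPC mouse 1, 3 or 4.

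Of 25 immediate early genes, which are transcribed within minutes of a stimulus, Atf3 rose, and 12 rose in the day 4 libraries alone, with a median log2 fold change of 0.75. Fos was at 52.5, 48.9, 34.7 and 36.7 CPM with vehicle and 262, 106, 209.7 and 205 CPM with LPC (2.18 ± 0.50, edgeR adjusted p = 0.059), and Fosl1 (2.46 ± 0.79), Jun (1.45 ± 0.37) and Klf6 (1.62 ± 0.36) rose in the day 4 libraries alone too. Egr1 (0.70 ± 0.35), Ccn2 (0.18 ± 0.23) and Btg2 (-0.33 ± 0.19) were not called. The 12 became 4 without vehicle mouse 2 or 4, 6 without vehicle mouse 1 and 7 without LPC mouse 3. Of 25 genes of the integrated stress and unfolded protein response, Atf3 and Gdf15 rose and the chaperone gene Hspa5 (1.07 ± 0.21) joined them in the day 4 libraries alone, with a median of 0.36. Other members that the same response induces had small values, with Trib3 at 0.46 ± 0.31 and Chac1 at -0.46 ± 0.52. Of 24 NRF2 targets, Hmox1 and Ugdh rose, and Nqo1 (0.88 ± 0.38), Gsr (0.69 ± 0.22) and Osgin1 (0.84 ± 0.28) joined them in the day 4 libraries alone, with a median of 0.38; with the muscle score as a covariate Nqo1 was at -0.37. The 5 became 1 without vehicle mouse 1 and 3 without vehicle mouse 2 or LPC mouse 3 or 4. Gsr, glutathione reductase, was at 41.7, 54.9, 42.4 and 45.9 CPM with vehicle and 71.5, 78.2, 75.9 and 73.2 CPM with LPC, among the most even shifts of these lists. Of 16 metallothionein and heat shock genes, Hspa1a (1.27 ± 0.24), Hspa1b (1.20 ± 0.25) and Dnajb1 (0.76 ± 0.19) rose and Hspb8 (-0.74 ± 0.37) fell in the day 4 libraries alone. There Hspb8 was not called without any mouse other than vehicle mouse 3. Dnajb1 was not called without vehicle mouse 2 or 4 or LPC mouse 1, 3 or 4. Hspa1a and Hspa1b are near-identical copies, so their separate values are uncertain.

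Some genes of the myelin sheath fell in the day 4 libraries alone. Of 19 Schwann cell and melanocyte genes none was called in the 16-library fit. At an unadjusted p under 0.05, 4 were lower, a share near the 19.2% of all genes that passed in either direction, and DESeq2 called Prx. In the day 4 libraries alone 4 fell, Prx, Pmp22 and Mag among them, against 6.07% of all genes tested there. The median log2 fold change of the list was -0.19, and 8 of the 19 were above 0. Prx, periaxin of the myelin sheath, was at 49.5, 43.5, 49.8 and 40.1 CPM with vehicle and 21.8, 15.1, 21.4 and 13.5 CPM with LPC (-1.35 ± 0.40, edgeR adjusted p = 0.086, and 0.011 in the day 4 libraries alone). The myelin genes Pmp22 (-0.64 ± 0.29) and Mag (-1.45 ± 0.49) also fell there. Vehicle mouse 3, with its low muscle share, was the highest vehicle mouse for Prx, Pmp22 and Mag. Mbp (-0.34 ± 0.21) of the same sheath was not called. With the muscle score as a covariate the value of Prx was -0.63 and that of Pmp22 0.07, and neither was called. That fit can hardly separate LPC from muscle share, so no conclusion is drawn from these values. Without a single mouse, 2 to 5 of the 19 fell in the day 4 libraries alone, 2 of them without vehicle mouse 1 or 4 or LPC mouse 3 or 4.

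Macrophage genes split. None of 25 tested was called in the 16-library fit. At an unadjusted p under 0.05, 1 was lower and 2 higher, a smaller share than the 19.2% of all genes, and DESeq2 called Spp1. In the day 4 libraries alone 4 fell and 1 rose. The 4 were Adgre1 and the 3 chains of complement C1q (C1qa, C1qb and C1qc). C1qa was at 126, 91.2, 111 and 99.4 CPM with vehicle and 39.4, 40.3, 53.5 and 64.3 CPM with LPC (-1.11 ± 0.58, edgeR adjusted p = 0.31), and the macrophage surface gene Adgre1 at 15.4, 11.3, 13.3 and 27.3 CPM and 6.62, 2.00, 4.67 and 6.92 CPM (-1.73 ± 0.81). Spp1, osteopontin, went the other way, from 8.68, 5.83, 7.01 and 12.4 CPM to 40.6, 66.9, 26.4 and 194 CPM (3.27 ± 0.75), with LPC mouse 4 the highest. The pan-macrophage genes Cd68 (0.16 ± 0.34) and Csf1r (-0.17 ± 0.42) were not called. The 4 became 1 without LPC mouse 3 and 2 without vehicle mouse 1 or 4 or LPC mouse 1, and Spp1 was not called without vehicle mouse 1 or 2. Of 21 endothelial and vessel genes, Vwf (-1.06 ± 0.52), Tek (-1.06 ± 0.49), Tie1 (-0.69 ± 0.35) and Rgs5 (-0.61 ± 0.55) fell and Apln, the ligand of the apelin receptor, rose (3.16 ± 0.75) in the day 4 libraries alone. Apln was at 1.80, 2.03, 3.29 and 3.05 CPM with vehicle and 4.75, 10.3, 23.6 and 52.6 CPM with LPC. The 4 falls became 9 without vehicle mouse 3 and 1 or 2 without any other mouse, and Apln was not called without vehicle mouse 1, 2 or 4 or LPC mouse 3 or 4. Vehicle mouse 3 was the lowest vehicle mouse for Vwf, Tek, Tie1 and Rgs5. With the muscle score as a covariate, C1qa (0.41), Adgre1 (0.67), Vwf (0.57), Tek (0.42), Tie1 (0.39) and Rgs5 (1.09) had values above 0. None was called there (edgeR adjusted p from 0.604 to 0.917), and that fit can hardly separate LPC from muscle share. No conclusion is drawn from these signs.

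**Figure D5:**
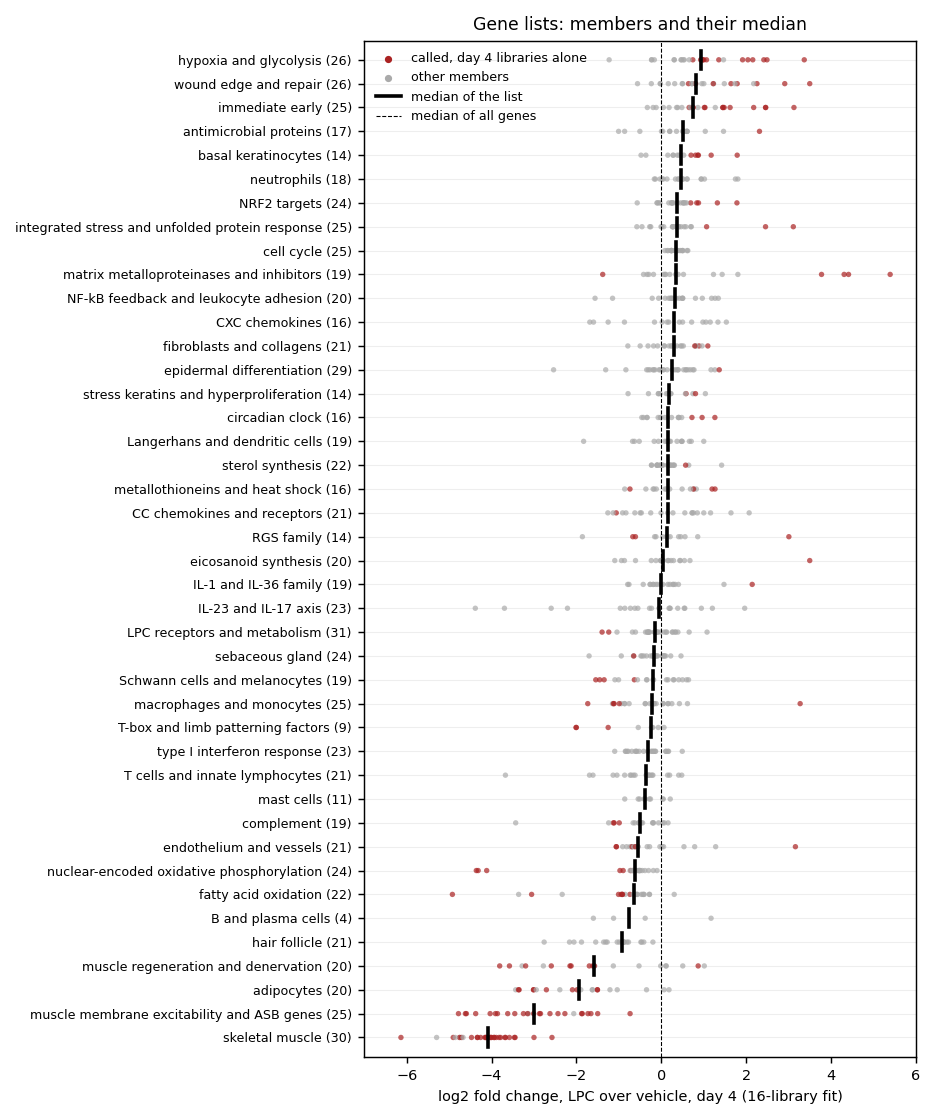
Log2 fold change of LPC over vehicle at day 4 (x axis, 16-library fit) for the tested members of 42 gene lists (y axis, number tested in parentheses), with red points for members called in the day 4 libraries alone, grey points for the others, a black bar at each list's median and a dashed line at the median of all genes. The medians run from -4.08 for skeletal muscle to 0.93 for hypoxia and glycolysis.

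Matrix, clock and antimicrobial genes held a few single calls. Of 21 fibroblast and collagen genes none was called in the 16-library fit. At an unadjusted p under 0.05, 5 were higher, a share near the 19.2% of all genes that passed in either direction. DESeq2 called Col6a2, 1 of the 1104 genes it called among all 15782. The collagen VI chains Col6a1 (0.89 ± 0.35) and Col6a2 and the collagen crosslinking enzyme gene Loxl2 (0.79 ± 0.28) rose in the day 4 libraries alone. Col6a2 was at 106, 152, 182 and 154 CPM with vehicle and 304, 287, 309.9 and 370.2 CPM with LPC (1.10 ± 0.32), with no overlap. The 3 became 1 without vehicle mouse 2 or LPC mouse 3 or 4. Of 16 circadian clock genes, Arntl (0.72 ± 0.17), Bhlhe40 (1.26 ± 0.35), which low oxygen also induces, and Cry1 (0.96 ± 0.35) rose in the day 4 libraries alone, and 1 did without vehicle mouse 2. Of 17 antimicrobial genes, Wfdc12, a whey acidic protein family member, rose there, from 3.07, 2.77, 2.51 and 4.47 CPM to 13.4, 25.4, 8.93 and 16.1 CPM (2.31 ± 0.56), also when any 1 mouse was left out. Of 25 cell cycle genes all had a log2 fold change above 0, with a median of 0.35, and of 21 hair follicle genes all had one below 0, with a median of -0.93. None of either list was called by edgeR in either fit or by DESeq2, nor passed an unadjusted p under 0.05 in the 16-library fit. Of 20 muscle regeneration and denervation genes, 9 fell and 1, Runx1 (0.87 ± 0.23), rose in the day 4 libraries alone, where 18 were tested. The 9 became 2 or 3 without vehicle mouse 1, 2 or 4 or LPC mouse 2, 3 or 4. Runx1 was not called without vehicle mouse 1 or 4 or LPC mouse 1, 3 or 4.

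Few inflammatory genes of the imiquimod response were called. Of the immune lists, 9 are treated as 1 set here because they held no call in either edgeR fit (the IL-23 and IL-17 axis, neutrophils, CXC chemokines, T cells, dendritic cells, mast cells, B cells, the type I interferon response and NF-kB feedback), so the absence of calls among their 153 genes follows from that choice. In the day 4 libraries alone 14 of them, Il17a, Il17f and Il22 included, had too few counts to be tested. With the replicate block in those libraries, 4 genes of the NF-kB list were called higher and 1 lower, 1 chemokine of the CXC list higher and 1 lower, and 1 gene each of the neutrophil and dendritic cell lists higher. Some genes of the 9 lists were also called in the day 4 libraries alone, without the block, when vehicle mouse 3 or LPC mouse 2 or 4 was left out. At an unadjusted p under 0.05 in the 16-library fit 10 of the 153 genes were higher and 8 lower, a smaller share than the 19.2% over all genes. By list, 1 was higher and 4 lower of 23 in the IL-23 and IL-17 axis, and 5 higher and 2 lower of 20 in NF-kB feedback. DESeq2 called Nfkbia and Rel of the NF-kB list higher and the adhesion gene Selp lower. Il17f was at 0.106, 1.38, 0.290 and 8.01 CPM with vehicle and 0.854, 0.342, 0.104 and 0.305 CPM with LPC, with vehicle mouse 4 far above all others. Il17a (0.159, 0.0494, 0 and 2.75 CPM and 0.107, 0.0977, 0 and 0 CPM) and Il22 (0.0529, 0.247, 0 and 3.44 CPM and 0.160, 0, 0 and 0 CPM) had the same outlying mouse and were otherwise near or under the limit of detection. Il1b was at 77.2, 94.8, 2.71 and 149 CPM with vehicle and 92.0, 49.7, 16.5 and 238 CPM with LPC (0.29 ± 1.06), and the alarmin gene S100a8 at 393, 603, 23.0 and 1033 CPM and 839.8, 1316, 152 and 815 CPM (0.61 ± 0.90). Vehicle mouse 3 and LPC mouse 3 were the lowest of their groups for Il1b and S100a8, and the SE exceeded the difference for both. Cxcl1, which attracts neutrophils, was at 95.6, 51.0, 71.4 and 151 CPM with vehicle and 316, 100.5, 149.8 and 199 CPM with LPC (1.05 ± 0.77, edgeR adjusted p = 0.48). The cytokine genes Il23a (-0.55 ± 0.67), Il6 (1.20 ± 1.08) and Tnf (0.94 ± 0.50) were not called. Neither were S100a9 (0.61 ± 0.92), a gene of the neutrophil list, and the keratin genes Krt16 (0.75 ± 0.57), Krt6a (-0.07 ± 0.58) and Krt10 (0.69 ± 0.40). Other immune lists held calls in the day 4 libraries alone. Of 21 CC chemokine and receptor genes tested, 20 of them in that fit, Ccl21a (-1.06 ± 0.69) fell. When 1 mouse was left out it was called again only without vehicle mouse 2. Of 19 complement genes the 3 C1q chains, which are in the macrophage list too, fell in the day 4 libraries alone. None of the 19 was called in the 16-library fit, and 1 to 4 fell in the day 4 libraries alone with a mouse left out. One gene of the IL-1 family list rose in the day 4 libraries alone: Il1rl1, the receptor of IL-33, was at 4.71, 6.17, 4.45 and 8.01 CPM with vehicle and 21.3, 17.2, 18.9 and 45.8 CPM with LPC (2.14 ± 0.63, edgeR adjusted p = 0.088, and 0.014 in the day 4 libraries alone).

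Of 31 genes of a list named for LPC receptors and metabolism, Liph fell, an enzyme that acts on phosphatidic acid, as described above. In the day 4 libraries alone 2 of the 30 tested fell, a share near the 6.07% of all genes that fell there: Liph and Pla2g5, a secreted phospholipase. Pla2g5 went from 31.5, 23.9, 19.4 and 33.9 CPM to 9.45, 13.3, 7.89 and 10.6 CPM (-1.40 ± 0.65). With the muscle score as a covariate it was at 0.52 (edgeR adjusted p = 0.904), in a fit that can hardly separate LPC from muscle share. The median log2 fold change of the list was -0.14. Gpr132, a receptor described as responding to LPC, was at 6.19, 6.08, 3.72 and 6.14 CPM with vehicle and 5.39, 5.77, 4.00 and 8.75 CPM with LPC (0.11 ± 0.29, edgeR adjusted p = 0.86). Enpp2 (-0.29 ± 0.42), which encodes autotaxin, and the LPC acyltransferase genes Lpcat1 (-0.15 ± 0.16) and Lpcat2 (0.39 ± 0.21) were not called. For Gpr132, Enpp2, Lpcat1 and Lpcat2, the range of 2 SE on either side of the estimate did not reach the fall seen in Liph.

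The day 7 mice, which are other animals but share the fit, give the same contrast in 604 called genes (3.83%). Of the 15 genes that rose at day 4, 14 had a positive log2 fold change at day 7 and 5 were called there, given with the log2 fold change and edgeR adjusted p: Rgs1 (2.65 ± 0.45, edgeR adjusted p = 0.012), Gdf15 (2.37 ± 0.47, 0.019), Adm (2.08 ± 0.44, 0.023), Hmox1 (1.36 ± 0.32, 0.031) and Mmp10 (3.51 ± 0.89, 0.044). Emp1, one of the genes with the smallest p at day 4, had 0.14 ± 0.21 at day 7 (edgeR adjusted p = 0.79). Of the 7 fallen genes, 2 had a negative value at day 7, Liph (-0.30 ± 0.19) and Ros1, and none was called lower. Kcnc4 (0.50 ± 0.34), Kcnj2 (0.30 ± 0.26), Asb16 (0.29 ± 0.50) and Gmpr (0.55 ± 0.42) had values above 0 and were not called. Tbx3 was called in the other direction at day 7, at 1.01 ± 0.22 (edgeR adjusted p = 0.029). Whether the LPC effect itself differed between the days was not tested here.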

How the data were processed

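Whole ear skin RNA was sequenced on the BGISEQ-500, aligned with Bowtie2 to GRCm38 and quantified with RSEM by the authors, per the labels' protocols; their versions and the strand setting are not stated in the labels. The deposited tables, 1 per library, give expected counts and FPKM per gene. Genes absent from a table were set to 0, leaving 19439 genes in any library, 15743 of them in all 16. Group and day were taken from the titles. The names of the deposited tables carry other day numbers than the titles, and the sources used here do not explain the difference.

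Expected counts were rounded and tested with edgeR 4.0.16 in R 4.3.3 (filterByExpr, TMM factors of 0.9754 to 1.107 at day 4, quasi-likelihood test over 4 groups and 16 libraries, Benjamini-Hochberg adjusted p under 0.05), with limma 3.58.1 and DESeq2 1.42.0 as alternatives. Errors (±) are SE of log2 fold changes, both from the 16-library fit, and CPM are TMM-scaled. The scripts were checked on simulated counts with the same spread for every gene and no deviating mouse. There the 16-library fit called 9 of 50 genes changed 2-fold and 49 of 50 changed 4-fold, and the day 4 libraries alone 10 and 49. A gene that was not called can thus still have changed 2-fold. The real counts vary more unevenly, so recovery in them is not known from this check. A muscle or other list score is the mean log2 CPM of its members. Of 895 listed genes in 42 lists, 884 matched the files and 858 were tested.

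Replicate pairs of a group differed by far more than sampling noise (mean chi-square per gene 28.3 to 164). Deviations of same-numbered day 4 mice from their group means had correlations of 0.186, 0.167, 0.43 and 0.628 over the 2000 most variable genes (0.0994 to 0.539 over all genes). Pairs with different numbers ran from -0.668 to 0.467. LPC mouse 1 was closer to vehicle mouse 4 (0.467), and LPC mouse 2 to vehicle mouse 3 (0.367), than to the mouse of the same number. The labels name separate mice, so a pairing by number is not established. Replicate block fits are given beside the counts.

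The comparison, lists and tests were chosen with earlier results of these data known. Named genes were the called genes, the members of each list with the smallest p, the largest changes in the day 4 libraries alone and a panel of 15 cytokine, alarmin, keratin and receptor genes. All other genes named, such as Slc2a1, Vegfa, Aldoa, Timp1, Krt5, Mbp, Cd68, Vwf and Enpp2, were chosen after their values were seen. Symbols, positions and promoters came from RefSeq tables of GRCm38.p6, which hold 19307 of the genes. Results for a few genes are not reported here.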

Additional observations from a re-analysis of the deposited data

Results flagged for a closer look

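A sample was singled out when its gap to the nearest of its 4-mouse group passed Dixon's critical value at the 95% level, which chance gives in about 1 of 20 groups; 14 of 130 groups met this. Vehicle mouse 3 accounted for 9 of the 14. Its log2 CPM was 0.4429 for Asb16 (2.911 to 3.306 in the other vehicle mice), 2.664 for Gmpr (4.454 to 4.716) and 5.564 for Elf1 (5.354 to 5.386), so it was low for Asb16 and Gmpr and high for Elf1. Its mean log2 CPM over a list was 6.286 for skeletal muscle (9.452 to 9.944 in the others), 2.567 for muscle membrane excitability and ASB genes (4.58 to 4.775), 4.556 for adipocytes (6.12 to 6.319), 3.831 for endothelium and vessels (4.263 to 4.304), 1.127 for neutrophils (4.207 to 4.329) and 3.32 for matrix metalloproteinases and inhibitors (4.167 to 4.246).

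Vehicle mouse 4 was high for Adm, at 3.989 log2 CPM against 3.138 to 3.168 in the other vehicle mice, though below every LPC mouse. LPC mouse 1 had a log2 CPM of -2.677 for Ros1 where the other LPC mice had no counts (-3.279). LPC mouse 2 was low for Atf3, at 5.882 against 7.141 to 7.329. LPC mouse 3 was high for the NRF2 target list, at 6.791 against 6.647 to 6.67, and LPC mouse 4 was low for the fatty acid oxidation list, at 5.135 against 5.483 to 5.549.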

How the results depend on the processing

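The 22 called genes kept their direction under every setting run (20 of them were tested under the stricter low-count filter), but their number depended on the setting. The count of genes called, then higher, lower and changed more than 2-fold, was 90, 36, 54 and 69 with upper-quartile factors and 8, 5, 3 and 7 without a low-count filter. It was 1104, 354, 750 and 730 with DESeq2 and 1606, 600, 1006 and 807 with limma-voom and quality weights. With limma on log2(FPKM + 0.1) it was 38, 26, 12 and 31, and with a pseudocount of 1 it was 40, 26, 14 and 31. The day 4 libraries alone gave 1333, 400, 933 and 856, an adjusted p under 0.10 gave 835, 289, 546 and 556, and the muscle covariate gave 0 for each. The replicate block, which pairs same-numbered mice, gave 1, 1, 0 and 1 over 16 libraries and 1165, 321, 844 and 868 over the day 4 libraries alone; the latter fit was added after the data were seen. Leaving out a mouse gave 0 to 683 called genes in the 16-library fits (0 to 120 higher, 0 to 563 lower, 0 to 470 over 2-fold) and 388 to 1968 in the day 4 libraries alone (104 to 666, 249 to 1302 and 326 to 1072). The cause was not tested. With the median-of-ratios factors or the stricter filter the counts stayed within 1.5 times of 22, 15 and 7, and the genes without overlap numbered 2578 from unscaled CPM.

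Some genes turned direction, and none of them was called in the setting where it turned. The muscle score did not overlap between the groups, so the covariate fit can hardly separate LPC from muscle share. With the muscle covariate the log2 values were 0.75 for Enpp2, 1.09 for Rgs5, 0.69 for Myh7, 2.25 for Adipoq, 0.46 for Bnip3, 0.017 for Gapdh, 0.30 for Timp2, -0.089 for Krt5, 0.42 for Krt15, -0.37 for Nqo1, 0.070 for Pmp22, 0.41 for C1qa, 0.67 for Adgre1, 0.68 for Csf1r, 0.57 for Vwf, 0.42 for Tek, 0.39 for Tie1, -0.55 for Cxcl1, -1.22 for Il6, 0.52 for Pla2g5, 0.48 for Car3, 0.49 for Hspb8, 1.67 for Timp4, 0.45 for C1qb, 0.24 for C1qc and -0.15 for Lpcat2. Krt6a was at 0.052 and 0.051 in the FPKM fits, 0.080 with the replicate block and 0.051 with the block in the day 4 libraries alone; with limma-voom Il1b was at -0.027 and Gpr132 at -0.030. Without a mouse, the 16-library and day 4 values ran from -0.51 to 0.13 and -0.48 to 0.094 for Bnip3, -0.040 to 0.30 and -0.063 to 0.25 for Cd68, -0.62 to 0.76 and -0.66 to 0.71 for Il1b, -0.85 to 0.098 and -0.82 to 0.064 for Il23a, -0.32 to 0.38 and -0.35 to 0.35 for Krt6a, and -0.13 to 0.26 and -0.15 to 0.28 for Gpr132; Ccn2 ran from -0.0043 to 0.38 in the day 4 libraries alone. Genes near the detection limit of 0.150 to 0.160 CPM, such as H1f4 and Ros1, rest on few counts.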
